A study of Mus musculus with 15 samples.

Results

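Interleukins are secreted cytokines through which immune, stromal and bone cells signal to one another, and each acts through a receptor made of a ligand-binding chain and one or more signalling chains. The genes described here are the 81 mouse genes, of 21150 with a probe on the array, whose symbol is Il followed by a digit: 36 ligands, 37 receptor chains (Il6st included), 6 antagonists or decoys and 2 others (the amino acid oxidase Il4i1 and the opposite-strand transcript Il1bos). They were found through the accession of 98 probes, and each gene is represented by the probe with the highest mean sample signal. Of 84 genes with such a symbol in the RefSeq table, the other 3 had no matched probe.

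RNA came from the femoral midshaft of male C57BL/6J mice labelled 9 weeks old, which had either a surgically removed femoral segment bridged by a graft, a needle pin and a saline-soaked collagen sponge (Surgery) or no operation (Sham). They were kept on the International Space Station (FLT) or in the same hardware on the ground (G), giving 4 arrays each of G-Sham, of G-Surgery and of FLT-Sham mice and 3 of FLT-Surgery mice, 1 mouse an array. By the study's account 9 weeks was about the age at surgery, shortly before launch. Tissue was taken several weeks after that, so the mice were then older than the label. The label names callus for every array, and in Sham mice this was the matching part of an intact femur. Sample RNA was labelled with Cy5 and a commercial RNA pool of mouse cell lines with Cy3 on every array, so each value is the log2 ratio of bone to that pool and no dyes were swapped.

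In bone, IL-1 and IL-6 type cytokines are known for driving osteoclast formation and for the early inflammatory phase of fracture repair. IL-11, which signals through Il11ra1 and the shared chain gp130 (Il6st), is known for supporting osteoblast formation, and IL-34 is a ligand of the colony stimulating factor 1 receptor on osteoclast precursors. Interleukin messages are often scarce in whole tissue, and a bulk measurement cannot tell fewer cells of a type from less RNA per cell.

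Carcasses had been frozen and partly thawed before dissection, and the study describes the RNA as of low integrity. The median raw Cy5 signal per array lay between 26 and 34, beside a local background of 22 to 24, and 22.4% to 38.5% of probes were well above background in Cy5. The bone gene Col1a1 was well above background on all 15 arrays, whereas the osteoblast and osteocyte genes Sp7, Dmp1 and Phex were on none in any group. Of 8 T cell genes Cd3e, Cd4 and Lck were on all 15 arrays, Cd2 on 8, Cd5 on 6 and Cd3d on 1, while Cd3g and Cd8a were on none. FLT-Sham replicate 8 and FLT-Surgery replicate 1 stood apart from their groups, and the counts without each are given in the comparisons they enter.

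The promoters of 64 of the 81 genes were in the RefSeq promoter table (GRCm38.p6). Il3ra and Il17d are shown because they passed the cut-off after surgery on the ground, and Il1b because it is the main inflammatory ligand of the set and was above background mainly in that group. Each line gives the 250 bases before the gene start on the strand of the gene, and capitals mark every match, on either strand, to the motif TATAAA (bound by TBP), to GGGCGG (bound by Sp1), to TGACTCA (bound by AP-1) or to TTCNNNGAA (bound by STAT factors), with overlapping matches joined. The windows are chr14:14346245-14346494 on the plus strand for Il3ra, chr14:57524579-57524828 on the plus strand for Il17d and chr2:129371140-129371389 on the minus strand for Il1b.
Il3ra: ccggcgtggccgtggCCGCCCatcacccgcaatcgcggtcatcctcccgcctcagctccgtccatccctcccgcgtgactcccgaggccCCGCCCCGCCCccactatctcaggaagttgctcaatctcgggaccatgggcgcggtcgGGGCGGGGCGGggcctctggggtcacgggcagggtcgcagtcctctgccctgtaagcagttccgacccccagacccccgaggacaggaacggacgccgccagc
Il17d: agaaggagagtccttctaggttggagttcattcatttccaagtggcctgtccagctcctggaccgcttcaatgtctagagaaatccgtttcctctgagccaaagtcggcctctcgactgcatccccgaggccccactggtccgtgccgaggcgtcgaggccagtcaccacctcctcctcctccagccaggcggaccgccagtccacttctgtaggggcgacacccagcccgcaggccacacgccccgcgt
Il1b: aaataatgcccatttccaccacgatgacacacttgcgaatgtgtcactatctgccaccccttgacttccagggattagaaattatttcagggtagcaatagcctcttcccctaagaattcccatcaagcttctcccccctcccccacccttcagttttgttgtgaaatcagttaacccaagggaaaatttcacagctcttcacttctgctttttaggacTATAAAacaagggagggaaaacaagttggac

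The Il3ra window held 5 matches to GGGCGG, 27 CG dinucleotides and 72.4% G and C. The Il17d window held none of the 4 motifs but 16 CG dinucleotides, and the Il1b window held 2 CG dinucleotides and a TATAAA that began 31 bases before the gene start. GGGCGG was in 32.9% of all 27025 promoters and in 15 of the 64, or 23.4%. TATAAA was in 13.0% of all promoters and in 12 of the 64, among them Il1a, Il2, Il13, Il17a and Il17f. TGACTCA was in 4.43% of all and in 10 of the 64, among them Il6, where it lay 249 bases before the start. TTCNNNGAA was in 7.18% of all and in 7 of the 64. The median of G and C was 50% over the 64 promoters and 52% over all. It was 57.6% over the 7 promoters of members well above background on all 15 arrays, and 45.8% over the 28 of members on 0 arrays. Among all genes it was 59.2% for those on all 15 arrays and 50.8% for those on 0. These are matches of letters only.

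Most interleukin genes were at or near background. Of the 81, 37 (45.7%) were well above background in Cy5 on 0 arrays, 16 on 1 or 2, 20 on 3 to 14 and 8 (9.88%) on all 15. Over all 21150 genes, 31.7% were on 0 arrays and 21.2% on all 15. Among the 36 ligands 19 were on 0 arrays and 2 on all 15, and among the 37 receptor chains 12 were on 0 and 6 on all 15. Of the 6 antagonists and decoys, 5 were on 0 arrays and the soluble IL-22 receptor Il22ra2 was on 1.

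**Figure D1:**
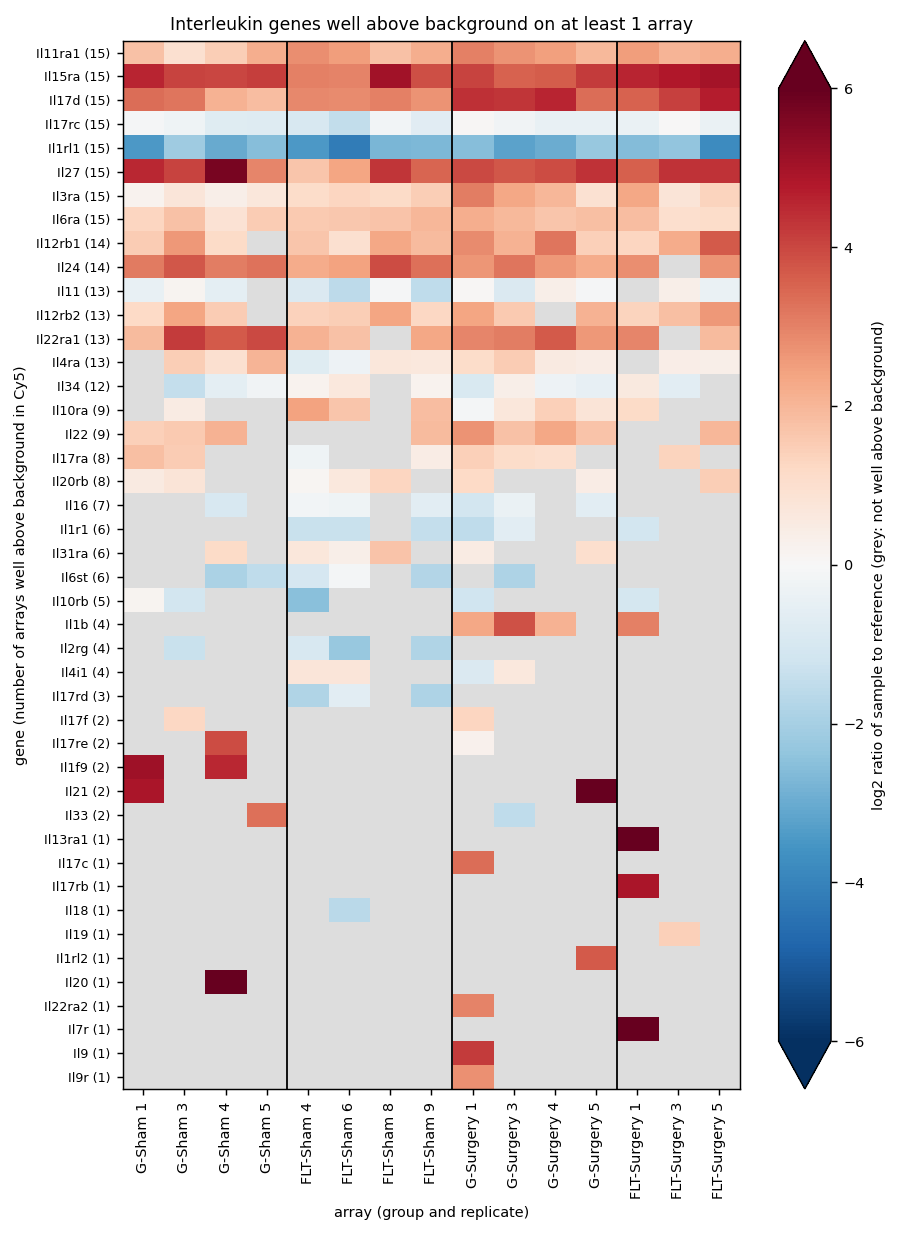
Each row is 1 of the 44 interleukin genes well above background on at least 1 array and each column an array; colour gives the log2 ratio of sample to reference where the gene was well above background in Cy5, and grey marks arrays where it was not. The 8 genes at the top are coloured on all 15 arrays, and the 11 at the bottom on a single array.

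By family, 13 of the 20 members of the IL-1 family were on 0 arrays, among them the ligand Il1a, the receptor antagonist Il1rn and the co-receptor Il1rap. In the common gamma chain family, 9 of 17 were on 0 arrays, among them Il2, Il4, Il7 and Il15. In the IL-6 and gp130 family 3 of 9 were on 0 arrays and 3, Il6ra, Il11ra1 and Il27, on all 15. In the IL-17 family 3 of 11 were on 0 and 2, Il17d and Il17rc, on all 15. In the IL-10 family 9 of 11 were on at least 1 array, though none on all 15.

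The reference channel shows which of the 37 were measurable with these probes. In Cy3, 9 of them were well above background on all 15 arrays: Il6, Il10, Il15, Il18bp, Il18rap, Il1rap, Il20ra, Il2rb and Il27ra. For 8 of these the bone signal was below the reference on every array, and Il2rb was above it on 2 arrays, at 0.41 on FLT-Surgery replicate 3 and 0.06 on FLT-Sham replicate 4. Il6, the main ligand of Il6ra, had log2 ratios of -4.41 to -1.54, and the IL-27 receptor Il27ra had -2.77 to -0.15. The antagonist Il1rn, above background in Cy3 on 5 arrays, had -1.19 to 0. A further 21 were on 0 arrays in either channel, and 4 had a log2 ratio of exactly 0 on every array, which is how the software reports a spot without signal in both channels. Il17a shows what such values are worth: it was on 0 arrays in both channels, yet its log2 ratios ran from 0 to 3.101.

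Detection varied with the array. Between 14 and 31 of the 81 genes were well above background on an array, against 6215 to 11369 of all genes. The count was 14 to 22 in G-Sham, 15 to 26 in FLT-Sham, 18 to 31 in G-Surgery and 15 to 20 in FLT-Surgery. FLT-Sham replicate 8 had 15, whereas the other FLT-Sham arrays had 23 to 26. G-Surgery replicate 1 had the most, 31.

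**Figure D2:**
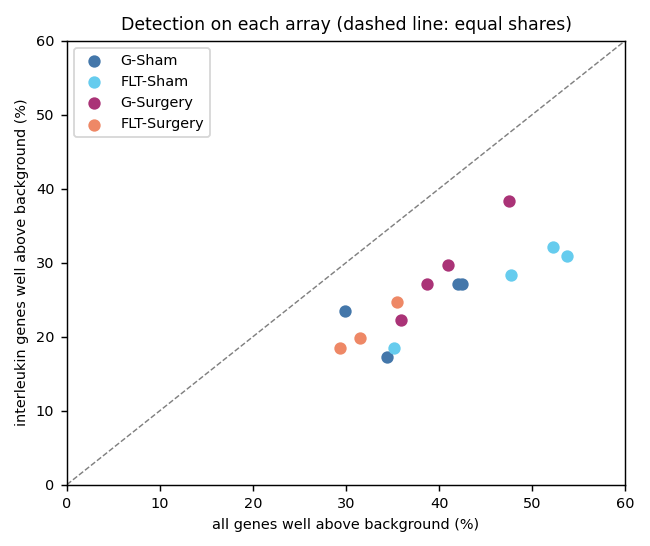
For each array, the percent of all genes well above background in Cy5 (horizontal) against the percent of the 81 interleukin genes (vertical), coloured by group; the dashed line marks equal shares. All 15 arrays lie below the line, with 17.3% to 38.3% of the interleukin genes and 29.4% to 53.8% of all genes.

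Of the 44 genes on at least 1 array, 11 were on exactly 1. The receptor chain Il7r, known from lymphocyte development, had a log2 ratio of 9.24 on FLT-Surgery replicate 1 and between 0 and 1.26 on the other arrays. On the same array Il13ra1, a chain of the IL-4 and IL-13 receptors, had 7.52, against -3.49 to -2.03 elsewhere, and Il17rb, a receptor for IL-25, had 4.88, against -2.66 to -0.31. All 3 lie far outside the other arrays, on 1 array that had 168 genes above background there alone. The genes Il9, Il9r, Il17c and Il22ra2 were on G-Surgery replicate 1 alone, with log2 ratios of 2.76 to 4.17; 349 genes were on that array alone. The ligand Il20 had 6.87 on G-Sham replicate 4 and 0 on every other array. These values rest on 1 array each and were chosen after they were seen.

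The 8 genes on all 15 arrays were measured above background throughout in Cy5, and all 8 were also above background in Cy3 on every array. Il15ra binds IL-15 and presents it to neighbouring cells. Its log2 ratios ran from 2.97 to 5.03. Il27, a subunit of IL-27, ran from 1.65 to 5.69, and Il17d, a member of the IL-17 family of ligands, from 1.87 to 4.71. Il11ra1, the IL-11 receptor chain, lay between 0.96 and 3.03. Il3ra, the IL-3 receptor alpha chain, lay between 0.23 and 3.07, and the IL-6 receptor Il6ra between 0.88 and 2.20. Il17rc, a receptor chain for IL-17A and IL-17F, was near the reference, at -1.50 to 0.09, and Il1rl1, the IL-33 receptor, was below it, at -4.20 to -2.13. The spread over the 15 arrays was narrowest for Il6ra and widest for Il27.

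**Figure D3:**
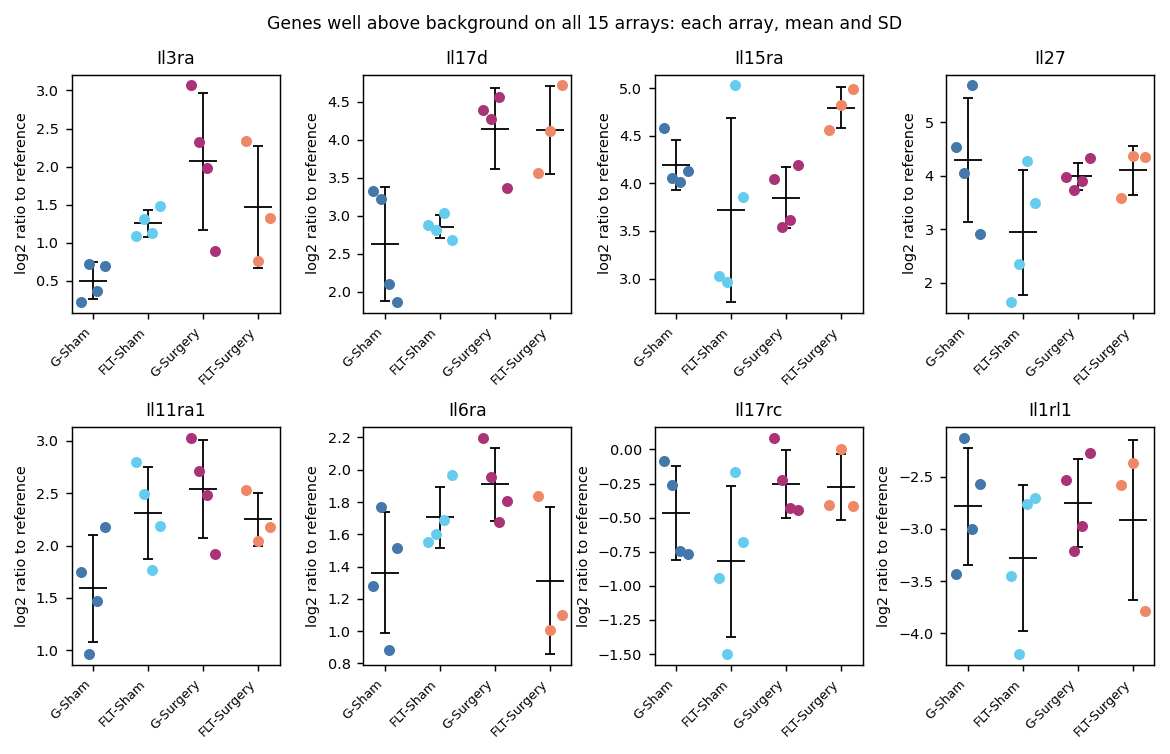
Log2 ratio of sample to reference for the 8 interleukin genes on all 15 arrays, by group; circles are arrays, the horizontal mark is the group mean and the bar its SD. Il3ra and Il17d sit higher in G-Surgery than in G-Sham with no overlap, and Il15ra sits higher in FLT-Surgery than in G-Surgery.

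Surgery on the ground was compared by G-Surgery against G-Sham, which asks what the bone defect does without flight. A gene was called if limma gave a change of at least 2-fold and, before adjustment, a p no higher than 0.01, which are the study's thresholds, and a gene was tested if it was well above background on 3 or more of the arrays compared. Il3ra and Il17d rose, and they were the only 2 of 24 interleukin genes tested to pass; 3.14% of all genes tested passed, 2.68% by being higher. Groups did not overlap for 8.02% of all genes tested here. Neither held after Benjamini-Hochberg adjustment over all probes.

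In G-Surgery the log2 ratios of Il3ra were 3.07, 2.32, 1.99 and 0.90, and in G-Sham 0.23, 0.72, 0.37 and 0.70. Every G-Surgery array was above every G-Sham array, with replicate 5 closest. The log2 fold change was 1.56 (SE 0.44, adjusted p = 0.322 in limma). In FLT-Surgery Il3ra had 2.34, 0.76 and 1.33. Il3ra pairs with the beta chains of the IL-3 receptor and is known from myeloid progenitors, mast cells and basophils.

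Il17d had log2 ratios of 4.38, 4.27, 4.56 and 3.36 in G-Surgery, against 3.33, 3.22, 2.11 and 1.87 in G-Sham. The lowest G-Surgery array was just above the highest G-Sham array. The log2 fold change was 1.51 (SE 0.43, adjusted p = 0.331 in limma). A second Il17d probe, on 14 arrays, differed by 0.75 in the same direction. Il17d is a secreted member of the IL-17 family known for inducing cytokine release from endothelial cells.

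Arrays lay on 3 slides; both groups were on slides 1 and 2, and slide 3 held G-Sham replicate 4 alone. Within slide 1, with 3 G-Surgery arrays and 1 G-Sham array, the difference was 1.27 for Il3ra and 0.89 for Il17d; within slide 2, with 1 and 2 arrays, it was 1.86 and 1.67. With slide as a block, the log2 fold changes were 1.54 (SE 0.60) and 1.25 (SE 0.55), and neither gene passed. With a further loess normalization of each array they were 1.22 (SE 0.39) and 1.02 (SE 0.69), again short of the cut-off. Neither gene passed without any one of G-Surgery replicates 1, 3 and 4 or G-Sham replicates 4 and 5, and Il17d alone passed without G-Sham replicate 1 or 3.

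Il1b, the main secreted IL-1 ligand, was well above background on 3 of 4 G-Surgery arrays, on 0 of 4 G-Sham arrays and on 0 of 4 FLT-Sham arrays. Its log2 ratios were 2.30, 3.83, 2.10 and -1.90 in G-Surgery and -1.82, -1.46, -1.54 and -1.08 in G-Sham. The G-Surgery array at -1.90, replicate 5, was below all G-Sham arrays. The level in G-Surgery was at least 2.15-fold that in G-Sham, a bound set against the lowest signal measurable in the dim group, and Il1b entered the test only through the group where it was high. The test missed the cut-off (log2 fold change 3.06, SE 1.05, adjusted p = 0.363). Without G-Surgery replicate 5 Il1b passed, beside Il3ra and Il17d. The difference was 2.30 within slide 1 and 5.28 within slide 2. In FLT-Surgery Il1b was on 1 of 3 arrays, at 3.03, -1.71 and -1.67.

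Other cell type markers moved in the same comparison. The 6 macrophage and monocyte genes made up 0.0117% to 0.0159% of the Cy5 signal in G-Surgery and 0.00590% to 0.00790% in G-Sham, and the defining genes Adgre1 and Mrc1 were above background on no G-Sham array. Of the 5 of them tested, Cd14 passed, higher in G-Surgery. The 7 neutrophil genes made up 0.0395% to 0.0998% in G-Surgery and 0.0537% to 0.141% in G-Sham, with 0 of 6 tested past the cut-off. The 4 mast cell genes made up 0.00749% to 0.0130% and 0.00946% to 0.0113%. Of these Tpsb2 was above background on all 15 arrays of the study, with log2 ratios of 5.63 to 7.62, and Cpa3, Cma1 and Mcpt4 on none of the G-Surgery and G-Sham arrays. The 7 osteoblast and osteocyte genes made up 0.181% to 0.372% and 0.122% to 0.216%, and Ibsp passed, as did the cartilage collagen Col2a1. Col2a1 was above background on 4 of 4 G-Surgery and 0 of 4 G-Sham arrays, so it was tested only through G-Surgery. The part of these cells in the values of Il3ra, Il17d and Il1b was not tested.

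The other members stayed short of the cut-off on the ground. Il11ra1 had 3.03, 2.71, 2.48 and 1.92 in G-Surgery and 1.75, 0.96, 1.47 and 2.18 in G-Sham, so the groups overlapped at 1 array (log2 fold change 0.95, SE 0.35, adjusted p = 0.394), and it was 1.51 within slide 1 and 0.75 within slide 2. Its ligand Il11 was above background on 13 arrays, with log2 ratios of -0.12 ± 0.52 (SD, n = 4) in G-Surgery and -0.67 ± 0.83 in G-Sham. Il34, on 12 arrays, had -0.34 ± 0.53 and -0.90 ± 0.59. At an unadjusted p of 0.05, 4 of 24 members passed, Il1b included, where 11.9% of all genes did. The median log2 fold change of the 24 was 0.48, beside 0.17 over all genes tested, and with a further loess the medians were 0.12 and -0.04.

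**Figure D4:**
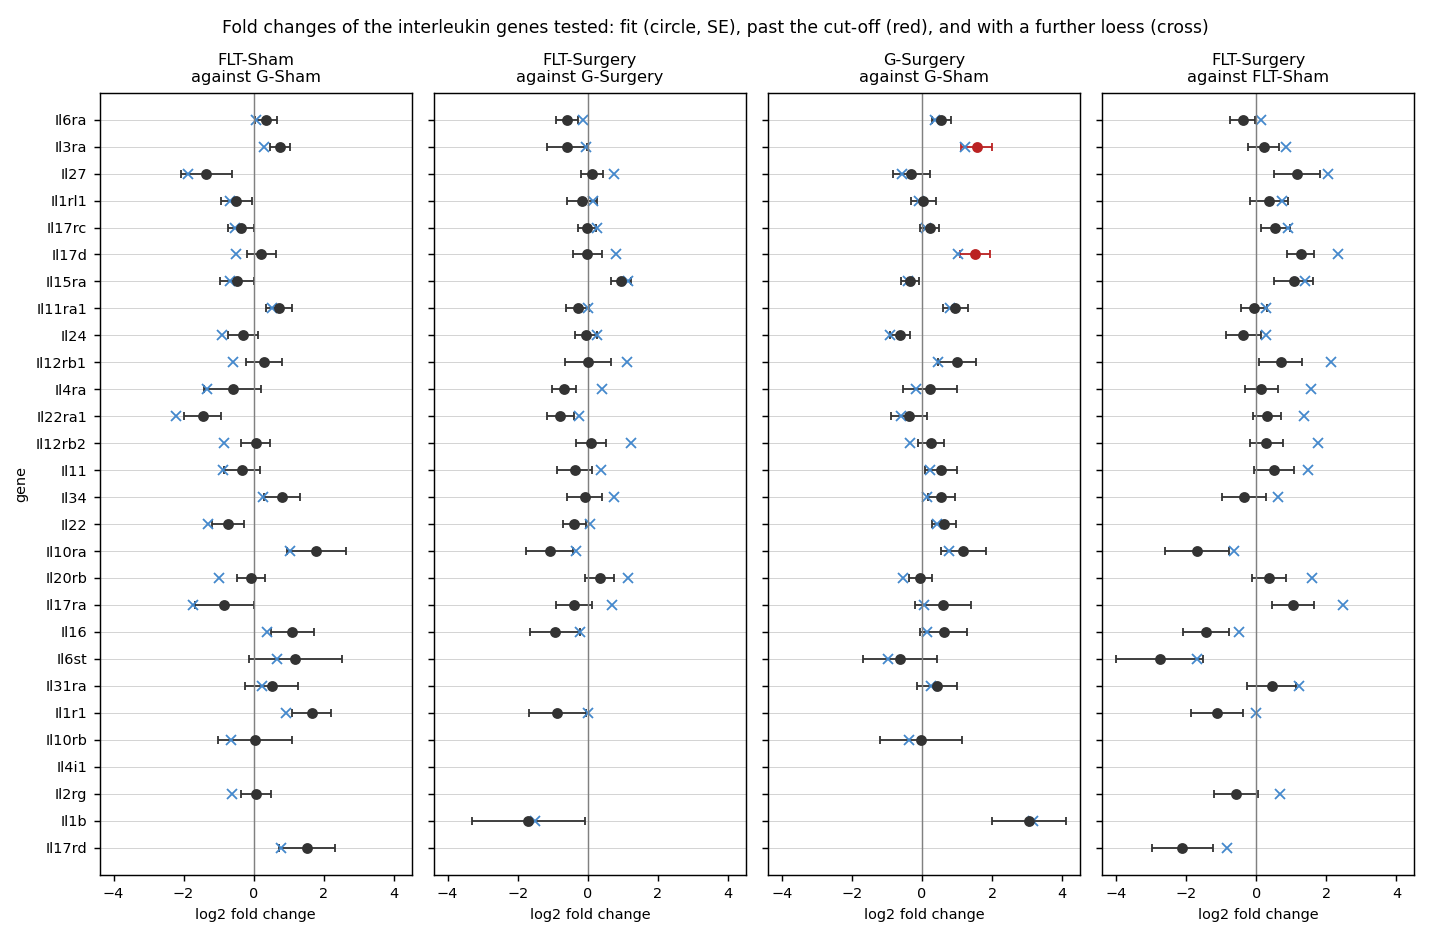
Log2 fold change of each interleukin gene tested in the 4 comparisons of 2 groups; circles and bars are the fit and its SE, red marks a gene past the cut-off, and crosses the value after a further loess of each array. Only Il3ra and Il17d in G-Surgery against G-Sham are red, and the crosses lie mostly left of the circles in FLT-Sham against G-Sham and right of them in both FLT-Surgery panels.

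Spaceflight without surgery was compared by FLT-Sham against G-Sham. None of the 26 interleukin genes tested passed the cut-off, where 1.97% of all genes did, and 3 reached an unadjusted p of 0.05 in limma (Il1r1, Il3ra and Il22ra1), where 10.1% of all genes did. Il1r1 and Il17rd entered this test only through the FLT-Sham arrays on which they were above background, so their values are a description. No probe of any gene had an adjusted p of 0.05 or less, while 1887 had an unadjusted p that low.

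The receptor Il1r1, through which Il1b signals, was well above background on 3 of 4 FLT-Sham arrays and 0 of 4 G-Sham arrays. Its log2 ratios were -1.33, -1.35, -2.04 and -1.43 in FLT-Sham and -4.89, -2.52, -2.61 and -2.77 in G-Sham. The groups did not overlap, and G-Sham replicate 1 was far below the rest. The FLT-Sham level was at least 2.24-fold that in G-Sham (log2 fold change 1.66, SE 0.56, adjusted p = 0.493). A further loess brought the log2 fold change to 0.93, a fold under that bound. With normexp and loess on the median signals, which change the background correction, the normalization and the signal together, the log2 difference was -0.11, the other way.

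Il3ra also separated the Sham groups, at 1.09, 1.31, 1.13 and 1.49 in FLT-Sham against 0.23 to 0.72 in G-Sham. All FLT-Sham arrays were higher, but by less than 2-fold (log2 fold change 0.75, SE 0.29, adjusted p = 0.509), and after a further loess the difference was 0.30. Arrays of the Sham groups did not overlap for 4.86% of all genes tested.

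Il22ra1, the IL-22 receptor chain known from epithelia, had 2.11, 1.78, 1.73 and 2.30 in FLT-Sham and 1.90, 4.18, 3.69 and 3.98 in G-Sham. G-Sham replicate 1 lay among the FLT-Sham arrays, and the other 3 lay above them all (log2 fold change -1.46, SE 0.52, adjusted p = 0.502). After a further loess it passed the cut-off, at -2.23, and it passed without G-Sham replicate 1 too, as did Il1r1. Within slides 1 and 2 the differences were 1.19 and 2.22 for Il1r1, 0.37 and 0.84 for Il3ra, and -2.07 and -1.01 for Il22ra1.

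Il27 had 1.65, 2.35, 4.27 and 3.50 in FLT-Sham and 4.53, 4.04, 5.69 and 2.91 in G-Sham; the groups overlapped (log2 fold change -1.35, SE 0.73, adjusted p = 0.522).

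The Sham result depended on FLT-Sham replicate 8. Without it, 11.4% of all genes and 2 of 26 members passed, Il10ra and Il17rd, both higher in FLT-Sham. Il10ra, the IL-10 receptor chain of leukocytes, had 2.42, 1.68, -0.79 and 1.86 in FLT-Sham, where the third value is replicate 8, and -2.25, 0.48, -0.73 and 0.52 in G-Sham. Il17rd, known as a modulator of growth factor signalling, was above background on 3 of 4 FLT-Sham arrays and on none of the other 11, with log2 ratios of -1.81, -0.62, -4.65 and -1.84. The FLT-Sham level was at least 1.40-fold that in G-Sham under the normalization used for the bounds.

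Over the 26 members the median log2 fold change was 0.06, with 15 above 0, beside 0.38 over all genes tested. After a further loess the medians were -0.61 and 0.03, and 10 of the 26 were above 0. Cell type markers moved here too. The 4 adipocyte genes made up 0.00466% to 0.0213% of the Cy5 signal in FLT-Sham and 0.000172% to 0.00803% in G-Sham, with all 4 above 0 and Plin1 past the cut-off. Plin1 was above background on 3 of 4 FLT-Sham and 0 of 4 G-Sham arrays, so it was tested only through FLT-Sham. The 7 neutrophil genes made up 0.0793% to 0.158% and 0.0537% to 0.141%, with 5 of 7 above 0 and none past the cut-off. The 4 osteoclast genes made up 0.00602% to 0.0394% and 0.00234% to 0.0139%, with a median log2 fold change of 1.88 over the 3 tested and none past it. The 7 osteoblast and osteocyte genes made up 0.116% to 0.195% and 0.122% to 0.216%, and Ibsp passed, higher in FLT-Sham. The part of these cells in the values of Il1r1, Il3ra, Il22ra1, Il10ra and Il17rd was not tested.

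Spaceflight after surgery was compared by FLT-Surgery against G-Surgery, in a defect for which the study saw no bone bridging in either group. None of the 22 interleukin genes tested passed, where 3.27% of all genes did, and only Il15ra reached an unadjusted p of 0.05, where 19.4% of all genes did. No probe of any gene had an adjusted p of 0.05 or less, while 2704 had an unadjusted p that low.

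Il15ra had log2 ratios of 4.57, 4.82 and 4.995 in FLT-Surgery and 4.05, 3.54, 3.61 and 4.19 in G-Surgery. All FLT-Surgery arrays were higher. The log2 fold change was 0.94 (SE 0.28, adjusted p = 0.280), just under 2-fold, and with a further loess it was 1.15, past the cut-off. It was 0.96 within slide 1 and 1.02 within slide 2. A second Il15ra probe, above background on 2 arrays, had a mean log2 ratio of -1.42 where the first had 4.10, and differed by 0.72 in the same direction.

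The shared IL-4 and IL-13 receptor chain Il4ra was lower on every FLT-Surgery array, at -0.12, 0.40 and 0.35 against 1.09, 1.51, 0.53 and 0.46 (log2 fold change -0.68, SE 0.34, adjusted p = 0.345). After a further loess the difference was 0.40, in the other direction, and within slides 1 and 2 it was -0.31 and -1.62. Groups did not overlap for 15.2% of all genes tested in this comparison. Il16, a chemoattractant of CD4+ cells, was above background on 3 of 4 G-Surgery arrays and 0 of 3 FLT-Surgery arrays. It was thus tested only through G-Surgery, where it was at least 1.48-fold higher (adjusted p = 0.508 in limma). A further loess moved its log2 fold change from -0.94 to -0.23, a fold under that bound. The groups overlapped, with FLT-Surgery replicate 3 at -0.84 and G-Surgery replicates 1 and 4 at -1.11 and -2.76.

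The median log2 fold change of the 22 members was -0.33, beside -0.36 over all genes, and with a further loess the medians were 0.27 and 0.14. That loess turned the direction for 10 of the 22, and the number above 0 went from 5 to 15. Without FLT-Surgery replicate 1, 16.5% of all genes and 2 members passed, Il15ra higher and Il10ra lower in FLT-Surgery. Il15ra also passed without G-Surgery replicate 5.

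Markers of other cell types moved with this comparison. The 4 chondrocyte genes made up 0.000206% to 0.000336% of the Cy5 signal in FLT-Surgery and 0.000744% to 0.0166% in G-Surgery, and Col2a1 passed the cut-off (log2 fold change -5.92, SE 1.53, adjusted p = 0.280). The 7 muscle genes made up 0.0765% to 0.837% and 0.323% to 1.41%, with all 6 tested below 0. The 7 neutrophil genes made up 0.00867% to 0.0540% and 0.0395% to 0.0998%, with 5 of 6 tested below 0, and all 4 erythroid genes tested were below 0. The 6 macrophage and monocyte genes made up 0.00612% to 0.00949% in FLT-Surgery and 0.0117% to 0.0159% in G-Surgery, with 4 of 5 tested below 0. The 7 osteoblast and osteocyte genes made up 0.0902% to 0.156% and 0.181% to 0.372%, with all 4 tested below 0. None of the muscle, neutrophil, erythroid, macrophage, monocyte, osteoblast and osteocyte genes passed. The part of these cells in the values of Il15ra, Il4ra, Il16 and Il10ra was not tested.

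Surgery in flight was compared by FLT-Surgery against FLT-Sham. None of the 24 interleukin genes tested passed the cut-off, where 8.28% of all genes did. At an unadjusted p of 0.05, 2 members passed, Il17d and Il17rd, where 28.4% of all genes did. Il17rd is no support for a change, since it and 4 others of the 24 (Il16, Il2rg, Il31ra and Il6st) were tested only through the FLT-Sham arrays where they were above background.

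Il17d had 3.56, 4.11 and 4.71 in FLT-Surgery and 2.88, 2.81, 3.04 and 2.68 in FLT-Sham, so every Surgery array was higher, as on the ground. The log2 fold change was 1.27 (SE 0.39, adjusted p = 0.151), and the second Il17d probe differed by 1.48. It was 1.53 within slide 1 and 0.71 within slide 2. Il17d passed with a further loess, at 2.34. Without FLT-Surgery replicate 1 it passed too, as 1 of 24 members, where 15.5% of all genes did. Groups did not overlap for 16.5% of all genes tested in this comparison.

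**Figure D5:**
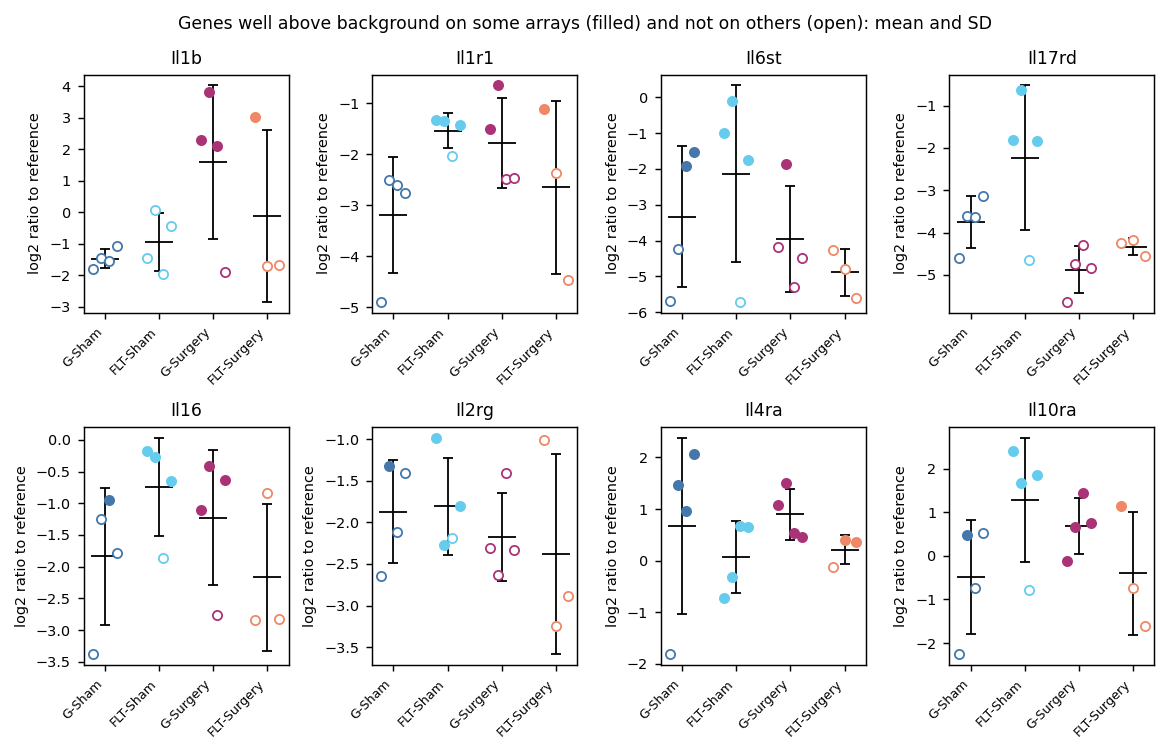
Log2 ratio of sample to reference for 8 interleukin genes that were well above background on some arrays (filled circles) and not on others (open circles), by group, with the group mean and SD. Il1b is filled on 3 G-Surgery arrays and 1 FLT-Surgery array, and Il17rd on 3 FLT-Sham arrays alone.

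Il6st encodes gp130, the chain that IL-6, IL-11 and IL-27 receptors share. It was above background on 3 of 4 FLT-Sham arrays, 2 of 4 G-Sham, 1 of 4 G-Surgery and 0 of 3 FLT-Surgery arrays. Its log2 ratios were -0.99, -0.11, -5.71 and -1.76 in FLT-Sham and -4.28, -4.79 and -5.60 in FLT-Surgery. The lowest FLT-Sham array, replicate 8, was below all 3 FLT-Surgery arrays. FLT-Sham was at least 4.11-fold higher (log2 fold change -2.75, SE 1.24, adjusted p = 0.219). A further loess brought the log2 fold change of Il6st to -1.68, a fold under that bound. Il17rd was on the same 3 FLT-Sham arrays, at least 1.46-fold higher (log2 fold change -2.10, SE 0.87, adjusted p = 0.195), with differences of -2.57 within slide 1 and -1.88 within slide 2. With normexp and loess on the median signals the log2 difference was -0.02 for Il6st and 0.03, the other way, for Il17rd. Il16 was at least 1.89-fold and Il2rg, the common gamma chain, at least 1.22-fold higher in FLT-Sham, each on 3 of 4 arrays against 0 of 3. After a further loess the log2 fold change of Il16 went from -1.43 to -0.48, a fold under that bound, and that of Il2rg turned from -0.57 to 0.68. Il16 passed without FLT-Surgery replicate 3. Il31ra, the IL-31 receptor, was also on 3 against 0, but its limit of detection gives no fold.

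Without FLT-Sham replicate 8, 29.8% of all genes tested passed and so did 3 of 23 members, Il6st and Il17rd lower and Il15ra higher in FLT-Surgery. The median log2 fold change of the 24 members was 0.26, beside -0.55 over all genes, and with a further loess 0.89 and 0.11. Markers of marrow, fat and muscle moved in this comparison. The 7 neutrophil genes made up 0.0793% to 0.158% of the Cy5 signal in FLT-Sham and 0.00867% to 0.0540% in FLT-Surgery, and 3 of 7 passed, lower, with 6 of 7 below 0. The 5 erythroid genes made up 0.0245% to 0.100% and 0.00174% to 0.0139%, with all 4 tested below 0 and 3 past the cut-off. Of these 3, Slc4a1 was on 4 of 4 FLT-Sham and 0 of 3 FLT-Surgery arrays, so it was tested only through FLT-Sham. The 4 adipocyte genes made up 0.00466% to 0.0213% and 5.19e-05% to 0.00351%, with all 4 below 0 and 3 past the cut-off. Adipoq and Plin1 were above background on no FLT-Surgery array, so they too were tested only through FLT-Sham. The 7 muscle genes made up 0.446% to 2.91% and 0.0765% to 0.837%, with 6 of 7 below 0 and 1, Acta1, past the cut-off. Their part in the values of Il6st, Il17rd, Il16 and Il2rg was not tested.

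Whether flight acted differently with and without surgery was fitted as an interaction over all 15 arrays, the flight difference in Surgery minus that in Sham. None of 28 members passed, where 6.84% of all genes did, and 5 reached an unadjusted p of 0.05, where 24.9% of all genes did. The value was -2.87 (SE 1.17) for Il10ra, -2.53 (SE 1.03) for Il1r1, -3.20 (SE 1.31) for Il4i1, -0.94 (SE 0.42) for Il6ra and 1.42 (SE 0.60) for Il15ra. Their adjusted p-values lay between 0.218 and 0.244. After a further loess the values were -1.39, -0.91, -1.57, -0.23 and 1.82 in that order. Il4i1 was above background on 2 of 4 FLT-Sham and 2 of 4 G-Surgery arrays, and on 0 of 4 G-Sham and 0 of 3 FLT-Surgery arrays. It entered this fit only through the 2 groups that count negatively, so its value is a description. Il1r1, too, was on 0 of 4 G-Sham arrays. The median over the 28 members was -0.25, beside -0.72 over all genes, and 1.06 and 0.17 after that loess. Il15ra alone of the 5 ran the other way, being lower by 0.48 with flight in Sham and higher by 0.94 in Surgery. Without FLT-Sham replicate 8, 3 members passed (Il10ra, Il15ra and Il4i1), and 21.5% of all genes. Without FLT-Surgery replicate 1 Il10ra and Il1r1 passed, and 13.8% of all genes. Without G-Surgery replicate 5 Il3ra passed, and 7.70% of all genes.

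Downstream of the receptors, 45 genes were listed as signalling partners, among them the Janus kinases, STAT factors, SOCS inhibitors and the related receptors Osmr and Lifr. In FLT-Sham against G-Sham 2 of 32 tested passed, beside 1.97% of all genes. Osmr, on 4 of 4 FLT-Sham arrays and 1 of 4 G-Sham arrays, had a log2 fold change of 1.87 (SE 0.49). Stat6, the factor used by Il4ra, was on 3 of 4 against 0 of 4 and so was tested only through FLT-Sham, where its level was at least 3.15-fold higher. In G-Surgery against G-Sham 1 of 28 passed, beside 3.14% of all genes: Stat3, the factor used by gp130, was higher by 1.15 (SE 0.34). In FLT-Surgery against G-Surgery 0 of 27 passed. In FLT-Surgery against FLT-Sham 3 of 31 passed, all lower, beside 8.28% of all genes. Osmr was on 1 of 3 FLT-Surgery arrays and had a log2 fold change of -2.70. Stat6 and Lifr were each on 0 of 3 against 3 of 4, so both were tested only through FLT-Sham. Their values, FLT-Sham being at least 2.91-fold and 5.55-fold higher, are a description. A further loess put Stat6 at a log2 fold change of -1.10, a fold under its bound. The adjusted p-values of the partners that passed in these comparisons ranged from 0.14 to 0.43. After a further loess Lifr alone of them still passed.

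Stat3 was above background on all 15 arrays, with log2 ratios of 0.75, 1.20, 0.72 and 0.30 in G-Surgery and -1.17, -0.16, -0.33 and 0.04 in G-Sham. All G-Surgery arrays were higher. It had 0.36, -0.80 and -0.93 in FLT-Surgery, and its interaction was -1.76 (SE 0.55, adjusted p = 0.175). Osmr, the oncostatin M receptor that pairs with gp130, had -1.61, -1.90, -2.05 and -2.49 in FLT-Sham and -4.69, -4.32, -3.99 and -2.54 in G-Sham, and -2.79, -5.58 and -5.77 in FLT-Surgery. Its interaction was -4.27 (SE 0.92, adjusted p = 0.162). For the interaction 4 of 34 partners tested passed, Stat3, Osmr, Stat6 and Socs2, all negative, beside 6.84% of all genes. After a further loess those of Osmr and Stat6 did, beside 3.80% of all genes. Stat6 and Socs2 were above background on 0 G-Sham and 0 FLT-Surgery arrays, so they entered only through the groups that count negatively. The comparisons share groups, so these values are not independent of one another.

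Several probes of a gene did not always agree. Of the 81 genes 16 had 2 or more probes, and in 4 of them more than 1 probe was above background on at least 3 arrays. Il1rl1 had a pair of probes on all 15 arrays, with mean log2 ratios of -2.93 and -1.53; they differed in the same direction in all comparisons of 2 groups but FLT-Surgery against G-Surgery, where the values were -0.16 and 0.30. The second probe of Il12rb1, the IL-12 and IL-23 receptor chain, was on 6 arrays with a mean of -1.53 beside 1.95. That of Il17rc was on 0 arrays, with a mean of -2.90 beside -0.47. For Il4ra, the FLT-Sham difference was -0.60 by the first probe and 0.55 by the second, which was on 3 arrays.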

How the data were processed

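The authors hybridised each sample in Cy5 against a commercial mouse reference RNA in Cy3 on Agilent arrays. The deposited intensity values and log10 ratios are Feature Extraction output (version 12.0 in the submitters' processing notes), background-subtracted and lowess dye-normalized, so no further loess was applied. The deposited series table holds the same log10 ratio to within 0.005, and the design build was mm9. From the deposited log10 ratios, log2 ratios were computed; outlier spots were dropped and repeat spots averaged. limma 3.58.1 (R 4.3.3) tested, within the 2 groups at hand, each probe whose Cy5 signal exceeded background on at least 3 arrays, with Benjamini-Hochberg adjustment over all probes. Of 55681 probes, 28020 had a RefSeq symbol, and a gene is given by its brightest probe. Bounds used Aquantile-normalized Cy5 and hold for that normalization alone. The number of arrays limits the precision.

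The members and lists were chosen with earlier results of these data known. Genes named are those on all 15 arrays, past the cut-off, up to 8 a comparison without overlap, or on 0 arrays of a group and 3 or more of another, and Il1b, Il6, Il11, Il17a, Il34, Il6st, Il1rn and Il27ra; others were chosen after their values were seen. The fit was tested on simulated data. Alternatives were a further loess, median centring, normexp (offset 50) with loess on median signals, Cy5 alone scaled to the 75th percentile, other filters, slide and replicate blocks, all arrays in the fit, the series table, and each array left out. The p-values measure the spread between mice of a group.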

Additional observations from a re-analysis of the deposited data

Results flagged for a closer look

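Each named gene was examined for an array far from the rest of its group in the groups of 4. Of 66 sets of values 4 stood out, where chance alone flags about 1 in 20, or 3.3 here. None of the 4 arrays was well above background for the gene concerned. The log2 ratio of Il1r1 was -4.89 on G-Sham replicate 1, with the other G-Sham arrays between -2.77 and -2.52, and -2.04 on FLT-Sham replicate 8, with the others between -1.43 and -1.33. The log2 ratio of Il6, the main ligand of Il6ra, was -1.54 on G-Sham replicate 5 and -3.99 to -3.74 on the others. The log2 ratio of Il17a was 1.87 on FLT-Sham replicate 8 and 0 to 0.01 on the others. The part of low signal in these values was not tested.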

How the results depend on the processing

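The count of 8 members on all 15 arrays was 8 with any probe of a gene and 8 when both channels had to be above background. Of the calls after surgery on the ground, 2 in the fit reported, 0 were left with a further loess, with normexp and loess, and with slide as a block, and 1 with median centring, Cy5 alone (both Il3ra), no filter (Il22ra2) or the replicate block (Il17d). Leaving out 1 array gave 0 to 3 calls; Il3ra and Il17d kept their direction under all 18 settings, with log2 fold changes from 0.85 to 1.95. In the Sham comparison, 0 became 1 with a further loess and with all arrays in the fit (Il22ra1 both times) and 2 with Cy5 alone (Il1r1 and Il22ra1); leaving out an array gave 0 to 2. In FLT-Surgery against G-Surgery, 0 became 1 with a further loess and Cy5 alone (Il15ra) and 1 with no filter (Il27ra, on 0 arrays above background); leaving out an array gave 0 to 2. In FLT-Surgery against FLT-Sham, 0 became 2 with a further loess (Il17d and Il17ra) and 1, Il17d, with median centring, Cy5 alone, no filter, or both channels above background; leaving out an array gave 0 to 3. For the interaction, 0 became 1 with normexp and loess (Il15ra) and with no filter (Il20ra); leaving out an array gave 0 to 3. The cause of these changes was not tested.

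The replicate numbers do not pair mice: deviations of same-numbered arrays correlated between -0.36 and 0.35. With the replicate block, 0 members and 81 genes passed in FLT-Surgery against G-Surgery, instead of 0 and 277, and 1 member and 236 genes in G-Surgery against G-Sham, instead of 2 and 284. The other comparisons shared fewer than 2 numbers. Without FLT-Sham replicate 8, genes past the cut-off went from 203 to 1165 in the Sham comparison and from 835 to 2959 in FLT-Surgery against FLT-Sham. Dim signal limits what can be seen: 53 of 81 members were not tested in any comparison.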
